A study of Mus musculus with 4 samples.

Results

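The 9 genes described here are DNA repair genes and Gadd45 family members. Each is known as a p53 target in human or mouse, or is a close relative of such a gene. All were followed in sarcomas of W/+ mice, and whether p53 induces each of them there was not tested. They were taken by their gene symbols from a deposited table of 56691 genes: Ddb2, Xpc and Ercc5 of nucleotide excision repair, Polh and Polk of translesion synthesis, Rrm2b of nucleotide supply, and the Gadd45 family members Gadd45a, Gadd45b and Gadd45g. All 9 were found once each, and all 9 passed the low-count filter that left 17188 genes for testing. The RNA-seq covered 4 sarcomas, 2 from mice treated with arsenic trioxide (ATO 1 and ATO 2) and 2 from control mice (PBS 1 and PBS 2). Every mouse carried a germline Trp53 mutation on a single allele beside a wild-type allele, which the labels write as p53R282W/+ in human numbering and the methods as R279W in mouse numbering. The strain was C57BL/6N, and by the methods the mice drank water with ATO (35 mg per L) from day 90 onward and control mice were untreated, whereas the labels name PBS as the control treatment. The mutation was made by CRISPR/Cas9 and is present in all tissues, the type of each sarcoma and the ages at sampling are not given in the sources used here, and the labels do not state whether the sarcomas of a group came from separate mice, so that p-values measure the spread between these samples. For all 4 sarcomas the labels also carry culture conditions (dexamethasone, isobutylmethylxanthine and insulin) that belong to cells in a dish.

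p53 is a transcription factor that is stabilized after DNA damage and raises the transcription of genes that halt the cell cycle, repair DNA or cause cell death. In nucleotide excision repair, damage sensors find a distorted stretch of DNA, nucleases cut out the damaged strand and a polymerase fills the gap. In translesion synthesis, specialized polymerases copy past a lesion that stops the replicative polymerases. The Gadd45 proteins are small stress-induced proteins without enzyme activity of their own that bind the kinase Map3k4, Pcna and the Cdk1 complex with cyclin B. Besides p53, the Gadd45 genes respond to stress signals that do not need p53, and Gadd45a is also known to be induced in wasting skeletal muscle.

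Total counts lay between 15259695 and 18134000 per sarcoma, so that a count of 3 corresponded to between 0.165 and 0.197 CPM (counts scaled to the library total). The lowest count of any of the 9 genes was 111 (Ddb2 in ATO 2), for which counting error alone is 9.49%. Intervals and limits of this kind cover counting error only. The mitochondrial share of the counts was 14.7% for ATO 2 and at most 2.59% elsewhere. All 8 mesenchymal markers checked for the labelled tissue had counts in every sarcoma, with a summed FPKM between 1327 and 5390. Of the 8, 6 had a negative log2 fold change of ATO over PBS and 2 a positive one, with a median of -1.22. In edgeR 0 of them had an unadjusted p under 0.05. By FPKM 4 lay below both PBS sarcomas in both ATO sarcomas, as did 29.6% of all genes tested. Vim had 581 and 812 in PBS and 131 and 272 in ATO, while Col1a1 overlapped between the groups. Markers of muscle and fat differed between the groups, although 0 of them passed the adjusted p. The summed FPKM of 8 skeletal muscle markers was 6.85 and 123 in PBS and 13950 and 1006 in ATO, and all 8 lay above both PBS sarcomas in both ATO sarcomas. That of 5 adipocyte markers was 12.7 and 66.2 in PBS and 229 and 1369 in ATO, again with all 5 above, while Plin1 and Lep had no count in PBS 1 and Lep none in PBS 2. Leukocyte markers (291 and 178 in PBS, 237 and 388 in ATO) and endothelial markers (108 and 946 in PBS, 77.9 and 157 in ATO) overlapped between the groups in summed FPKM. A bulk sample cannot tell fewer cells of a type from less RNA per cell.

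The regulatory DNA of the Gadd45 family is shown first, because among the 9 genes the family held the largest fitted differences between the ATO and PBS sarcomas. The following lines give 130 bases that end upstream of both the GENCODE and the RefSeq start of each gene, from the RefSeq promoter windows of GRCm38.p6, read 5′ to 3′ on the strand of the gene. Capitals mark 3 motifs. The first is the TATA box, spelled TATAAA. The second is the CCAAT box, named for its letters. The third is the octamer motif, spelled ATTTGCAT. Each was searched on both strands, and no match overlaps another.
Gadd45a, chr6:67037458-67037587, minus strand: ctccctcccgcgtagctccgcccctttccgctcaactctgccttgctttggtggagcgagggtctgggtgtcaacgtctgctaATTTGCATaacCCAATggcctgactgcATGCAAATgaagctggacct
Gadd45b, chr10:80929943-80930072, plus strand: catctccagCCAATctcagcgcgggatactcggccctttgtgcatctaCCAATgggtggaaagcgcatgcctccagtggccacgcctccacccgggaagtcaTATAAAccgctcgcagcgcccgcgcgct
Gadd45g, chr13:51846545-51846674, plus strand: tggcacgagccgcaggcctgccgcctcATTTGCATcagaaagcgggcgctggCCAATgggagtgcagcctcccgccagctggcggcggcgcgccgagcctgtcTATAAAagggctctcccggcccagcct

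Gadd45a held 2 octamers and 1 CCAAT box and no TATAAA, Gadd45b held 2 CCAAT boxes and 1 TATAAA and no octamer, and Gadd45g held 1 of each. Over all 32851 RefSeq windows of 250 bases before to 50 after a start, 1.74% held the octamer, 37.4% the CCAAT box and 13.6% TATAAA. The p53 half-site consensus was found in 8.36% of these windows. Windows were at hand for 6 of the 9 genes. The consensus was found in the window of Gadd45a and in 1 of the 2 windows of Polk, and not in those of Ercc5, Polh, Gadd45b and Gadd45g. The match in Gadd45a lies outside the bases shown above. No DNA beyond these windows, such as introns, was searched, so a missing match does not show that a gene lacks a p53 site. For comparison, 1 of the 2 windows of Cdkn1a, which encodes the p53-induced cell cycle inhibitor p21, held 2 half-sites and the other held none. A match is a description of letters in a window and not evidence of binding.

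All 3 Gadd45 genes had a higher fitted level in the ATO sarcomas, but only Gadd45g was higher in both ATO sarcomas on every scale used, and different ATO sarcomas carried the high values of Gadd45a and Gadd45b. In edgeR 0 of the 9 genes passed an adjusted p of 0.05. In the sentences that follow, FPKM is the count scaled to exon length and library total, and normalized CPM is the count scaled to the library total after TMM correction, which allows for a few very abundant genes.

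**Figure D1:**
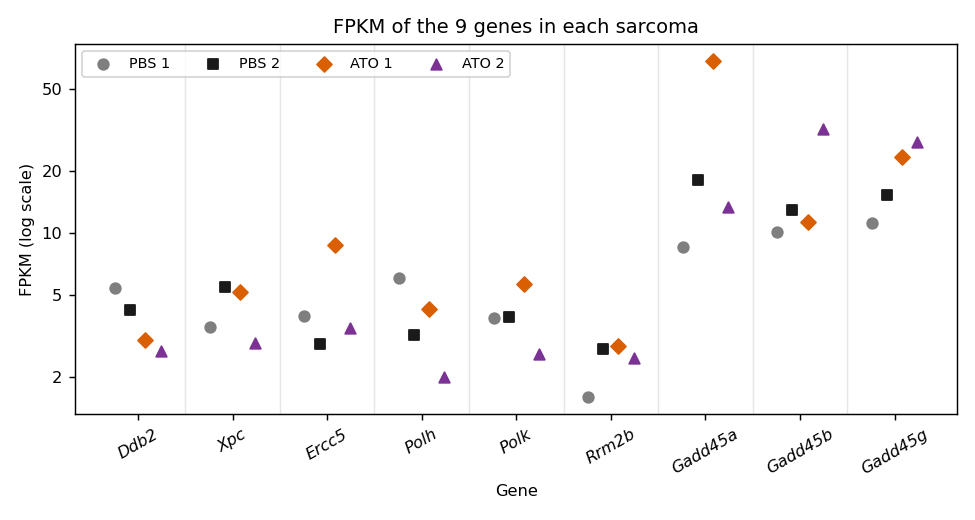
FPKM of the 9 genes (x axis) on a log scale (y axis), with a point for each sarcoma (grey circle PBS 1, black square PBS 2, orange diamond ATO 1, purple triangle ATO 2). Both ATO points lie above both PBS points for Gadd45g and below them for Ddb2. Gadd45a reached 68.15 in ATO 1 and 13.37 in ATO 2, which lies below the 17.92 of PBS 2.

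Gadd45g (ENSMUSG00000021453; chromosome 13 of GRCm38, 51846678 to 51848468) had an FPKM of 11.18 in PBS 1, 15.18 in PBS 2, 23.36 in ATO 1 and 27.49 in ATO 2. Both ATO sarcomas thus lay above both PBS sarcomas, and the sarcomas of a group were close to each other. All 8 skeletal muscle and all 5 adipocyte markers also lay above both PBS sarcomas in both ATO sarcomas, and the part of either tissue in the Gadd45g level was not tested. After normalization the ATO sarcomas had 33.4 ± 8.57 CPM (SD, n = 2) and the PBS sarcomas 14.1 ± 2.88 CPM (SD, n = 2), with a fitted log2 fold change of 1.24 (SE 0.45). The edgeR adjusted p was 0.577, from an unadjusted p of 0.0432, and this gene was the single member of the 9 with an unadjusted p under 0.05. Among all genes tested, 5.44% had an unadjusted p under 0.05 with a higher level in ATO, and 3.07% with a lower one. With each sarcoma left out in turn the log2 fold change stayed between 0.96 and 1.47.

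Gadd45a (ENSMUSG00000036390; chromosome 6, 67035096 to 67037457), a classic p53 target, had an FPKM of 8.5 in PBS 1, 17.92 in PBS 2, 68.15 in ATO 1 and 13.37 in ATO 2. ATO 1 stood far above the other sarcomas, and ATO 2 lay between the PBS sarcomas. On the normalized scale PBS 2 had 28.6 CPM and ATO 2 had 28.8 CPM, so that the groups did not overlap there by a margin that is smaller than counting error. On the log2 scale the fitted difference was 1.81 with an SE of 0.83 (adjusted p in edgeR 0.613), and it was 0.43 without ATO 1 and 2.51 without ATO 2. The 4.15-fold difference between the ATO sarcomas was larger than the 3.51-fold difference between the group means. ATO 1 was also the sarcoma with the skeletal muscle markers at a summed FPKM of 13950, against 1006 in ATO 2, and the part of muscle tissue in the Gadd45a level was not tested. An antisense gene, E230016M11Rik, overlaps the exons of Gadd45a. It had between 20 and 52 counts, against between 262 and 2180 for Gadd45a.

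Gadd45b (ENSMUSG00000015312; chromosome 10, 80930073 to 80932204), which is also a target of NF-kappa B, had an FPKM of 10.09 in PBS 1, 12.92 in PBS 2, 11.31 in ATO 1 and 31.8 in ATO 2. Here ATO 2 was the high sarcoma, and ATO 1 lay between the PBS sarcomas on both scales. The fitted log2 difference was 1.26 with an SE of 0.70 (adjusted p in edgeR 0.662), and it was 0.11 without ATO 2 and 1.87 without ATO 1. ATO 2 was the sarcoma with the adipocyte markers at a summed FPKM of 1369 and with 14.7% mitochondrial counts, and the part of either in the Gadd45b level was not tested. Over 9 immediate early and stress genes, the summed FPKM was 154 and 347 in PBS and 129 and 203 in ATO, so that the groups overlapped. Of the 9, 4 had a positive and 5 a negative log2 fold change. Single genes differed from the sum, as Fos (23.29) and Atf3 (15.36, against 14.1 in PBS 2) were highest in ATO 2. Fosb, Jun (65.19), Junb (76.8), Egr1, Ier2 and Dusp1 were highest in PBS 2, and Ddit3 in ATO 1.

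**Figure D2:**
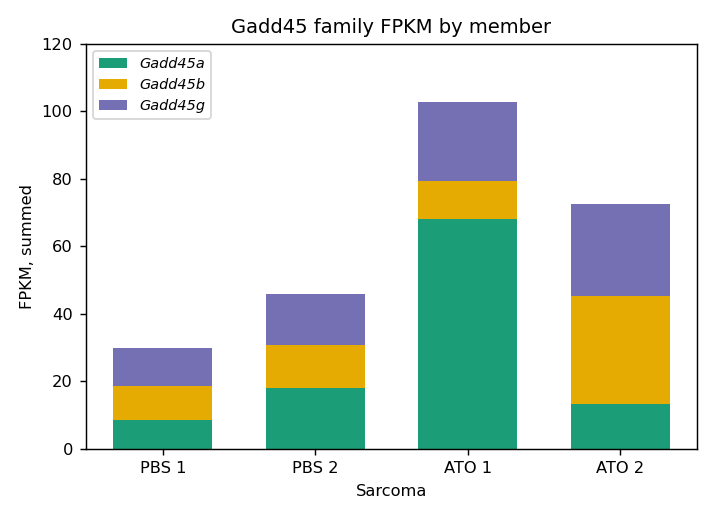
FPKM of Gadd45a (green), Gadd45b (yellow) and Gadd45g (violet) stacked for each sarcoma (x axis; y axis, summed FPKM from 0). The family total was 29.8 and 46.0 in PBS 1 and PBS 2 and 103 and 72.7 in ATO 1 and ATO 2, with Gadd45a as the widest band in ATO 1 and Gadd45b in ATO 2.

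The make-up of the family differed more between the ATO sarcomas than between the PBS sarcomas. Gadd45a made up 28.6% and 38.9% of the summed family FPKM in PBS 1 and PBS 2, 66.3% in ATO 1 and 18.4% in ATO 2. Gadd45b made up 33.9% and 28.1% in PBS, 11% in ATO 1 and 43.8% in ATO 2. The share of Gadd45g ranged from 22.7% in ATO 1 to 37.8% in ATO 2, with 37.6% and 33.0% in PBS. The ratio of Gadd45a to Gadd45b, which does not depend on the scaling between libraries, was 0.842 and 1.39 in PBS, 6.03 in ATO 1 and 0.420 in ATO 2. These ratios lie on both sides of those in PBS, and an exact two-sided permutation test of the log2 ratio gave p = 1. With 2 against 2 sarcomas this test cannot go below 0.333, and over the 6 ratios compared here every Benjamini-Hochberg adjusted exact p was 1. For the ratio of Gadd45g to Gadd45a, which was 1.32 and 0.847 in PBS and 0.343 and 2.06 in ATO, the exact p was also 1.

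Of the nucleotide excision repair genes, Ddb2 was lower in both ATO sarcomas on both scales, Ercc5 lay above the PBS sarcomas by normalized CPM but overlapped with them by FPKM, and Xpc showed no direction that held across the sarcomas. Ddb2 (ENSMUSG00000002109; chromosome 2, 91211572 to 91236982) encodes the subunit of the UV-damage sensor that recognizes pyrimidine dimers. Its FPKM was 5.38 in PBS 1, 4.21 in PBS 2, 3 in ATO 1 and 2.66 in ATO 2, so that both ATO sarcomas lay below both PBS sarcomas. After normalization this was 8.54 ± 0.50 CPM (SD, n = 2) for ATO against 12.0 ± 2.18 CPM (SD, n = 2) for PBS. The fitted log2 difference was -0.49 with an SE of 0.51 (adjusted p in edgeR 0.820). It stayed negative with each sarcoma left out, between -0.67 and -0.29. Whether p53 induces Ddb2 in mouse was not tested here. The exons of Ddb2 overlap those of Acp2 on the opposite strand. Acp2 had between 1544 and 2251 counts, against between 111 and 257 for Ddb2, and because no source used here says whether reads were counted by strand, the Ddb2 counts are uncertain.

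Ercc5 (ENSMUSG00000026048; chromosome 1, 44147744 to 44181260) encodes the XPG nuclease, which makes an incision beside the lesion. It had an FPKM of 3.94 in PBS 1, 2.87 in PBS 2, 8.7 in ATO 1 and 3.44 in ATO 2, with ATO 1 high and ATO 2 between the PBS sarcomas. By normalized CPM the levels were 21.2 and 15.2 in PBS and 50.8 and 24.7 in ATO, so that the groups did not overlap on that scale. On the log2 scale the difference was 1.05 with an SE of 0.53 (adjusted p in edgeR 0.640), and it was 0.42 without ATO 1. Xpc (ENSMUSG00000030094; chromosome 6, 91489305 to 91515888), whose product detects distorted DNA in the whole genome, had an FPKM of 3.5 and 5.46 in PBS and 5.15 and 2.93 in ATO. Its groups overlapped on both scales, and its log2 fold change of 0.10 (SE 0.47) was -0.15 with scaling by total counts and between -0.20 and 0.43 when single sarcomas were dropped.

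Both translesion polymerases overlapped between the groups. Polh (ENSMUSG00000023953; chromosome 17, 46171355 to 46202645) encodes polymerase eta, which copies accurately past UV-induced thymine dimers. Its FPKM was 6 in PBS 1, 3.19 in PBS 2, 4.24 in ATO 1 and 2 in ATO 2, and its fitted log2 difference was -0.33 with an SE of 0.56 (adjusted p in edgeR 0.892), turning to 0.21 without PBS 1. Polk (ENSMUSG00000021668; chromosome 13, 96480690 to 96542579), which encodes polymerase kappa, had an FPKM of 3.87 and 3.88 in PBS, 5.65 in ATO 1 and 2.58 in ATO 2. The PBS sarcomas were nearly equal and lay between the ATO sarcomas. Its log2 fold change of 0.32 (SE 0.48) was -0.18 without ATO 1. Within a sarcoma, the ratio of Polh to Polk was 1.55 and 0.822 in PBS and 0.750 and 0.775 in ATO. It was lower in both ATO sarcomas, with an exact p of 0.333, the value that any ratio without overlap has in this design. However, PBS 2 and ATO 2 were close, and counting error alone is 7.41% for the Polh count and 6.76% for the Polk count of ATO 2. The log2 difference of this ratio was -0.57 with all sarcomas and -0.11 without PBS 1.

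Rrm2b (ENSMUSG00000022292; chromosome 15, 37923952 to 37961318) encodes the p53-inducible small subunit of ribonucleotide reductase, which supplies deoxynucleotides outside S phase. Its FPKM was 1.59 in PBS 1, 2.74 in PBS 2, 2.83 in ATO 1 and 2.46 in ATO 2, so that PBS 1 was the low sarcoma and the other 3 were similar. On the normalized scale both ATO sarcomas lay above both PBS sarcomas, with 26.6 ± 1.22 CPM (SD, n = 2) in ATO and 17.99 ± 6.62 CPM (SD, n = 2) in PBS. The fitted log2 difference was 0.57 with an SE of 0.47 (adjusted p in edgeR 0.763) and 0.23 without PBS 1. Gm49085, which overlaps exons of Rrm2b on the opposite strand, had between 5 and 17 counts, against between 253 and 469 for Rrm2b. Rrm2, the S phase counterpart of Rrm2b, had an FPKM of 23.49 and 9 in PBS and 44.64 and 3.19 in ATO. The ratio of Rrm2b to Rrm2 was therefore 0.0677 and 0.304 in PBS, 0.0634 in ATO 1 and 0.771 in ATO 2, with an exact p of 1. Over 10 proliferation markers the summed FPKM was 184 and 134 in PBS, 184 in ATO 1 and 36.8 in ATO 2. ATO 2 was the lowest sarcoma both for these markers and for Rrm2, and the part of proliferation in this ratio was not tested.

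**Figure D3:**
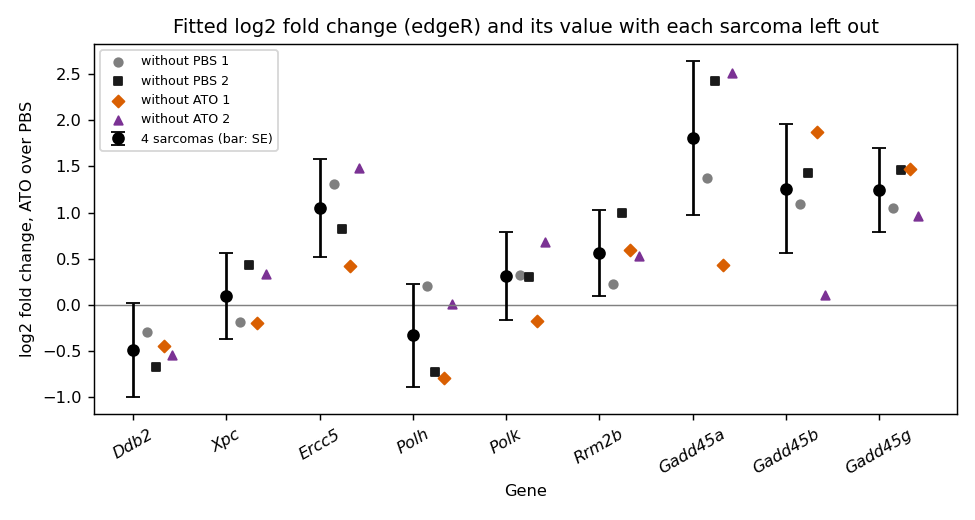
Fitted log2 fold change of ATO over PBS (y axis) for the 9 genes (x axis), with black points for all 4 sarcomas, bars for the SE, and coloured points for the fit without a named sarcoma. The values of Ddb2 stay below 0 and those of Ercc5, Rrm2b and the 3 Gadd45 genes above 0 in each of these fits, while Xpc, Polh and Polk lie on both sides.

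Of the 9 genes, 7 had a positive log2 fold change and 2 (Ddb2 and Polh) a negative one, against 49.2% positive among all genes tested. Their median log2 fold change was 0.57, against -0.016 for all genes. The number of positive values ranged from 5 without ATO 1 to 8 without ATO 2, and was 6 with scaling by total counts. Scaling by total counts moved the median of all genes to -0.28 and that of the 9 genes to 0.29, and 7 of the 9 lay above the median of all genes with either scaling. By normalized CPM, both ATO sarcomas lay above both PBS sarcomas for 4 of the 9 (Gadd45a, Gadd45g, Ercc5 and Rrm2b), where 19.7% of all genes did so, and below for 1 (Ddb2), where 20.2% did. By FPKM, 1 lay above (Gadd45g; 12.8% of all genes) and 1 below (Ddb2; 29.6% of all genes). In edgeR 0 of the 9 genes and 0% of all genes passed an adjusted p of 0.05, while 1463 genes had an unadjusted p under 0.05. DESeq2 called 754 genes and edgeR without a filter 541, of which 0 were among the 9 in either case. Sarcomas of the same group varied with a biological coefficient of variation of 62.5%, which limits what 2 sarcomas per group can show.

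Per length of exons, the 9 genes lay in 2 ranges. In each sarcoma the 3 Gadd45 genes had a higher FPKM than any of the 6 repair genes. Averaged over the 4 sarcomas, Gadd45a (26.99), Gadd45g (19.3) and Gadd45b (16.53) stood above Ercc5 (4.74), Xpc (4.26), Polk (3.995), Polh (3.86), Ddb2 (3.81) and Rrm2b (2.41). This order did not hold in each sarcoma, as Gadd45a was the highest of the 3 Gadd45 genes in PBS 2 and ATO 1 and the lowest in PBS 1 and ATO 2. Neighbours within each range did not separate beyond their spread over the sarcomas. Gadd45a varied most, by 8.02-fold between its lowest and highest sarcoma, and Rrm2b least, by 1.78-fold.

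The other genes of the same pathways had list medians between -0.23 and 0.16 on the log2 scale. Of 31 other nucleotide excision repair genes, all tested, 0 passed the adjusted p and 0 had an unadjusted p under 0.05 in edgeR, with 9 positive and 22 negative log2 fold changes and a median of -0.23. By normalized CPM 2 of them lay above both PBS sarcomas in both ATO sarcomas and 12 below, against the 19.7% and 20.2% of all genes. The lowest value was that of Pole (-1.38), a replicative polymerase that fills the repair gap. Rad23b, whose product binds Xpc, had an FPKM of 44.52 and 44.74 in PBS and 29.87 and 15.97 in ATO. The ratio of Xpc to Rad23b was 0.0786 and 0.122 in PBS and 0.172 and 0.184 in ATO, higher in both ATO sarcomas. Its exact p was 0.333, again the value that any ratio without overlap has in this design. Ddb1, which forms the damage sensor with Ddb2, had an FPKM of 150.81 and 78.25 in PBS and 75.5 and 38.21 in ATO. The ratio of Ddb2 to Ddb1 was 0.0357 and 0.0538 in PBS and 0.0397 and 0.0696 in ATO and overlapped between the groups (exact p = 0.667).

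Among 12 other translesion synthesis genes, 0 had an unadjusted p under 0.05, 7 had positive log2 fold changes, and the median was 0.16. The highest values were those of Shprh and Ube2b (0.64 each), which act in the ubiquitination of Pcna, and the lowest was that of Rad18 (-1.13), the ligase that starts this ubiquitination. Rad18 had an FPKM of 4.83 and 3.54 in PBS and 2.54 and 0.78 in ATO. It lay below both PBS sarcomas in both ATO sarcomas, as did 29.6% of all genes tested. Among 11 other genes of deoxynucleotide supply, 0 passed the adjusted p, and 2 had an unadjusted p under 0.05, both lower in ATO, where 3.07% of all genes did so. Dctd, which deaminates dCMP, had an FPKM of 6.79 and 14.14 in PBS and 1.41 and 0.58 in ATO (log2 fold change -3.17, SE 0.67, edgeR adjusted p 0.570). Tyms, which makes thymidylate, had 7.47 and 5.46 in PBS and 3.02 and 1.49 in ATO (log2 fold change -1.29, edgeR adjusted p 0.583). The median of this list was -0.018, and its highest value was that of Rrm2 (0.70). Like the summed proliferation markers, Pole, Rad18, Dctd and Tyms were lowest in ATO 2. The part of proliferation in their levels was not tested.

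Of 10 binding partners of the Gadd45 proteins or kinases downstream of them, 1 had an unadjusted p under 0.05, with a lower level in ATO as for 3.07% of all genes. This was Map2k6, a kinase that activates p38, with an FPKM of 4.62 and 4.93 in PBS and 1.57 and 1.08 in ATO (log2 fold change -1.59, edgeR adjusted p 0.570). Over these 10 genes the median was -0.20 on the log2 scale, and the highest value was that of Map2k3 (0.34).

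**Figure D4:**
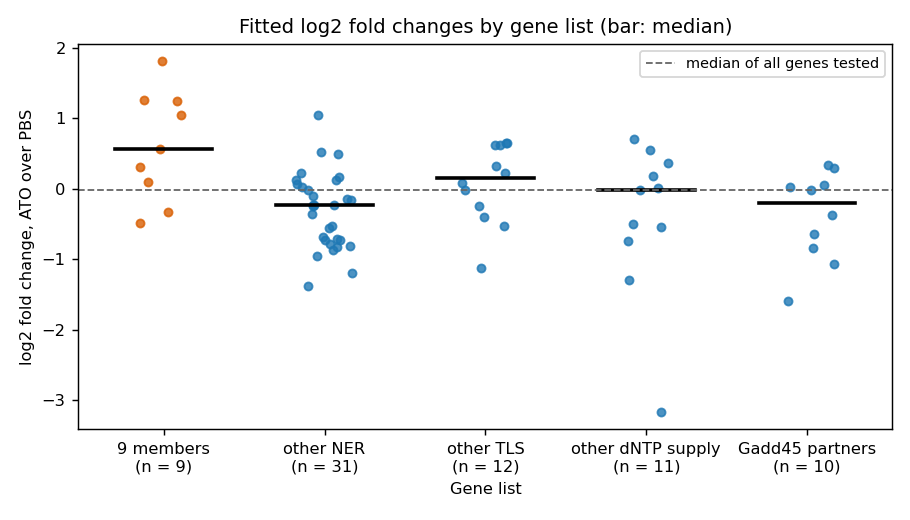
Fitted log2 fold changes of ATO over PBS (y axis) for the 9 genes in orange and the 4 lists of related genes in blue (x axis; NER, nucleotide excision repair; TLS, translesion synthesis), with a point per gene, black bars for medians and a dashed line for the median of all genes tested (-0.016). The median is 0.57 for the 9 genes and between -0.23 and 0.16 for the other lists.

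As context for p53 itself, Trp53 had an FPKM of 43.64 and 44.64 in PBS and 13.7 and 11.6 in ATO. Its fitted log2 difference was -1.53 with an SE of 0.37 (adjusted p in edgeR 0.570). Gene counts do not tell the mutant from the wild-type allele. Cdkn1a had an FPKM of 5.61 and 17.93 in PBS and 75.8 and 49.38 in ATO, and Mdm2, the p53-induced ligase that degrades p53, had 9.37 and 18.39 in PBS and 26.5 and 15.68 in ATO. By FPKM, the lowest and highest sarcomas were PBS 1 and ATO 1 for Cdkn1a, Mdm2, Gadd45a and Rrm2b. For Rrm2b, ATO 1 (2.83) was close to PBS 2 (2.74). Ercc5 and Polk were also highest in ATO 1, but were lowest in PBS 2 and ATO 2, respectively. Gadd45g and Gadd45b were highest in ATO 2, Ddb2 and Polh in PBS 1, and Xpc in PBS 2. The summed FPKM of the skeletal muscle markers was also lowest in PBS 1 and highest in ATO 1. The share of all genes lowest in PBS 1 and highest in ATO 1 was not counted. Neither shared regulation nor the part of muscle tissue in this order was tested.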

How the data were processed

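RNA-seq of 4 sarcomas was grouped by the treatment in the labels. Per the submitters' processing notes and the methods, the authors trimmed reads (Cutadapt 1.9.1), aligned them to the mouse genome (HISAT2 2.0.1) and counted them per gene (HTSeq 0.6.1), and deposited raw read counts and FPKM. The deposited FPKM were matched, with a tolerance of 0.005, by counts scaled to exonic size and library total. GRCm38 is named in the methods, but 1472 of 52073 shared genes have their GENCODE M21 (GRCm38) position in the table, so gene coordinates come from that annotation, joined by identifier. Of the genes, 2639 had no symbol.

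Counts were fitted for all genes with edgeR 4.0.16 (R 4.3.3), using filterByExpr and the quasi-likelihood F-test with Benjamini-Hochberg adjustment. The scaling was TMM (1.09, 1.11, 1.01 and 0.822 for PBS 1, PBS 2, ATO 1 and ATO 2). The study's methods give no test for the RNA-seq. Alternatives were DESeq2 1.42.0, other scalings, filters and variance settings, limma 3.58.1 on log2(FPKM + 1) or log2(FPKM + 0.1), a replicate block and leaving out each sarcoma. The scripts were run on simulated counts with known changes, where a pass was required only of edgeR at low variation. This checks the code and not what these 4 sarcomas can detect. Ratios were tested with exact permutation (scipy 1.17.1).

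The 9 genes and the lists were chosen with earlier results of these data known. Named genes are the 9, Trp53, Cdkn1a and Mdm2, the genes of the ratios, and per list those with an unadjusted p under 0.05 (at most 4) and the largest change in each direction, of which 1 is not reported here. Marker genes named beside them were chosen after their values were seen. Whether reads were counted by strand is not given in the sources used here. A second row named Ddit3, with no counts, was not used.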

Additional observations from a re-analysis of the deposited data

How the results depend on the processing

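The number of genes past the threshold, 0 in edgeR, was 754 with DESeq2 and 541 when edgeR had no filter (0 of the 9 genes in each), and 0 in the remaining alternatives and with each sarcoma left out, where the group left with 1 sarcoma is assumed to vary like the other. The cause was not tested. The median log2 fold change of the 9 genes, 0.57, was 0.23 in limma on log2(FPKM + 1), 0.29 with total counts and between 0.32 and 0.82 with each sarcoma left out. The number of positive values among the 9, 7 in edgeR, was 6 with total counts and 6 in limma on log2(FPKM + 1). On log2(FPKM + 0.1) it was 5. Sarcomas share only a number between the groups (correlation of same-numbered deviations -0.021). With the replicate block 0 genes passed, 1165 had an unadjusted p under 0.05, and the median was 0.61.

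Directions turned as follows. Xpc was -0.15 with total counts, -0.13 in limma on log2(FPKM + 1) and -0.17 on log2(FPKM + 0.1), and Polk was -0.018 in the last of these. With each sarcoma left out, Xpc ranged from -0.20 to 0.43, Polk from -0.18 to 0.68 and Polh from -0.80 to 0.21. The translesion synthesis median was -0.093 with total counts, -0.028 and -0.092 in limma with the larger and smaller pseudocount, and between -0.33 and 0.36 with each sarcoma left out. That of nucleotide supply was 0.0014 with DESeq2 size factors and between -1.13 and 0.19 with each sarcoma left out, and that of the Gadd45 partners between -0.40 and 0.046. The log2 ratios, ATO minus PBS, ranged from -0.14 to 0.67 for Ddb2 to Ddb1, -1.36 to 2.48 for Gadd45a to Gadd45b, -1.62 to 0.96 for Gadd45g to Gadd45a and -1.18 to 2.43 for Rrm2b to Rrm2. Of the recomputed values, 215 kept their direction and stayed on their side of the threshold, within the replicate spread or, for counts of genes, within a set factor. Another 23 reversed and 10 moved further. A log2 fold change of a single gene is among the 215 if only its sign held and it stayed above the adjusted p. Gadd45a, at 1.81 with all sarcomas and 0.43 without ATO 1, is thus among them, as are the 5 positive values without ATO 1 against 7.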
